A study of Mus musculus with 9 samples.

Results

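The interferon response and the class I branch of the major histocompatibility complex (MHC) were followed through 38 genes chosen by symbol, out of 40879 symbols in the count tables. Of these 38 members 30 had a count in at least 1 of 9 libraries and 18 passed the filter on low counts, against 18619 and 11980 of all symbols. The libraries came from engineered 3D skeletal muscle built from wild-type C2C12 cells, a mouse myoblast line, in matrix prepared from muscle tissue. All constructs had 2 days in growth medium and 10 days in differentiation medium with 10% equine serum. Normal constructs were left without X-rays, a 20 Gy dose made irradiated ones senescent by design, and cocultured constructs were unirradiated ones that shared a dish with an irradiated one, with 3 libraries in each group. The cells are a single line, so the data hold no variation between animals. The titles call the libraries biological replicates, but constructs of 1 condition were kept 2 to a dish, so p-values measure the spread between these libraries, which may be partly technical. The series text counts 2 irradiated and 2 normal constructs where the labels list 3 libraries of each, and all 3 were used.

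Interferons are secreted when cells sense viral or misplaced nucleic acid. Type I interferon acts through the receptor pair Ifnar1 and Ifnar2 and the kinases Jak1 and Tyk2 on a complex that holds Stat2 and Irf9 and binds interferon-stimulated response elements (ISRE) in the promoters of its targets. The targets encode antiviral proteins, and they include the machinery that shows peptides on the cell surface: immunoproteasome subunits cut proteins, the Tap transporter carries the peptides into the endoplasmic reticulum, and a class I heavy chain such as H2-K1 or H2-D1 presents them together with beta-2 microglobulin, the product of B2m. Muscle fibres are known for low class I levels at rest and for high ones in inflammatory muscle disease, and DNA damage and senescence are known settings of interferon signalling.

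Promoter sequences of 5 members are shown because they stand for the 2 kinds of member seen here, class I genes with counts in every library and classical interferon targets with few counts. They are the 130 bases from 180 to 51 bases before the annotated start, read 5′ to 3′ on the gene's strand, from RefSeq with the build GRCm38.p6, which is not the build named for the count files. B2m lies at chr2:122147507-122147636 (+), H2-D1 at chr17:35262914-35263043 (+), H2-K1 at chr17:34000398-34000527 (-), Isg15 at chr4:156200869-156200998 (-) and Ifit1 at chr19:34640709-34640838 (+). Capitals mark matches to GAAANNGAAA, the ISRE core (B2m, Isg15, Ifit1), and to GGGGANTCCC, an NF-kB type core (H2-D1, H2-K1), on either strand.
B2m: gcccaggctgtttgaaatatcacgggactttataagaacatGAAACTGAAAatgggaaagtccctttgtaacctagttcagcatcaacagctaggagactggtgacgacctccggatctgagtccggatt
H2-D1: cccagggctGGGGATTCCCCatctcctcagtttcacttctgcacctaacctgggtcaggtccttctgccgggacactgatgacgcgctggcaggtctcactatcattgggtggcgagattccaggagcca
H2-K1: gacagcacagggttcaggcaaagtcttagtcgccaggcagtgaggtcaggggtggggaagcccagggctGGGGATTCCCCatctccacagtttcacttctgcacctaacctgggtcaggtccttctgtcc
Isg15: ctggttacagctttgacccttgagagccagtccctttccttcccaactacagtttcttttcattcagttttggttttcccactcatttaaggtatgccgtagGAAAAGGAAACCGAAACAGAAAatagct
Ifit1: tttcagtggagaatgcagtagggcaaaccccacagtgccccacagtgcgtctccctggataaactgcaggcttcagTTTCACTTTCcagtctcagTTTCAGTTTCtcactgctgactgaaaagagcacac

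B2m held 1 ISRE match, Isg15 held 3 that overlap each other, and Ifit1 held 2 on the opposite strand. The capital stretch of H2-D1 is the same as that of H2-K1, and it holds 2 overlapping matches, 1 on each strand. Over the whole windows, from 250 bases before to 50 after a start, GAAANNGAAA was found in 3.44% of 32851 RefSeq windows and in 14 of the 28 members in the table. The shorter TTCNNNGAA, the interferon gamma-activated site type, was found in 8.3% of windows and 7 members, among them Irf1, Ifit2 and Psmb8. GGGGANTCCC was found in 0.323% of windows and in H2-D1, H2-K1 and Irf1. The other 10 members, Ifi27, Oas2, Mx1, Mx2, Usp18, Rtp4, Zbp1, Dhx58, Parp14 and Ly6e, are not in the table and were not searched. H2-D1 and H2-K1 held no exact match to GAAANNGAAA, but variants of these letters were not searched, so no element is shown to be absent. These are matches of letters and not measured binding.

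Library totals ran from 4840993 to 8290468 counts, with 8306 and 8654 genes detected in irradiated 2 and irradiated 3 and 10002 to 14159 in the others. All 12 markers of muscle fixed for the cell check were counted in 8 libraries and 11 of 12 in irradiated 2, but their summed level ran from 4630 normalised CPM (a library's counts scaled by TMM and by depth) in cocultured 2 to 63400 in irradiated 1 and 102000 in normal 3. Markers of leukocytes summed to 7.97 to 59.0 CPM in normal, 0.233 to 22.2 in irradiated and 0.112 to 7.30 in cocultured libraries. Of those 12, Cd3e and Siglech had no count anywhere and Ptprc, the pan-leukocyte gene, had 1 count in all. Csf1r, the only one tested, had 37, 18 and 136 counts in normal 1 to 3, 74, 0 and 1 in irradiated 1 to 3 and 0 in all cocultured libraries. Its cocultured libraries lay below all normal ones, as in 7.51% of all tested genes, without a call. Laptm5 had 221 counts in all, 175 of them in irradiated 2. Markers of fibroblasts summed to 6590 to 11500, 5550 to 8150 and 6970 to 11100 CPM in the 3 groups. Gsn and Dpt among them were higher in all irradiated than in all normal libraries, as were 3.94% of all tested genes. Cd34, Ly6a, Dcn, Lum and Pdgfra overlapped between these groups. Fitted log2 fold changes of irradiated against normal constructs were positive for 4 of the 7 fibroblast markers, with a median of 0.17. Markers of endothelium summed to 5.42 to 123, 0.117 to 101 and 2.06 to 14.4 CPM. In bulk RNA fewer cells of a type and less RNA per cell cannot be told apart.

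No member passed in any comparison. Between irradiated and normal constructs the quasi-likelihood test of edgeR (p-values adjusted after Benjamini and Hochberg) called 7 of 11980 genes (0.0584%) and 0 of the 18 tested members, with 4 members at an unadjusted p under 0.05 (B2m, H2-D1, Ly6e and Isg15), as were 1232 of all genes (10.3%). Between cocultured and normal constructs it called 0 genes (0%) and 0 members, with B2m alone at an unadjusted p under 0.05, as were 492 of all genes (4.11%). Between irradiated and cocultured constructs it called 4 genes (0.0334%) and 0 members, with 3 members at an unadjusted p under 0.05 (Ly6e, Bst2 and Gbp3), as were 1148 of all genes (9.58%). DESeq2 called 2 members (B2m and Ly6e), 1 (Gbp3, with no count in cocultured libraries) and 3 (Ly6e, Bst2 and Gbp3) in these comparisons, beside 455, 124 and 529 of all genes (4.05%, 1.08% and 4.62% of those with an adjusted p). With limma voom 0, 0 and 1 members (Ly6e) were called, beside 25, 0 and 105 of all genes (0.209%, 0% and 0.876%). The comparisons with normal constructs share their 3 normal libraries.

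Fitted values of the tested members leaned upward in irradiated constructs. Against normal ones 15 of 18 were positive, with a median log2 fold change of 0.93, where 41.7% of all genes were positive and their median was -0.21. Among the positive ones Ifit2, Rtp4, Gbp2, Gbp3 and Gbp7 had counts in only 1 irradiated library. With limma voom 11 of 18 were positive, with a median of 0.326 against -0.958 over all genes. With the replicate number added to the edgeR model it was also 11 of 18, with a median of 0.957 against -0.545. In cocultured constructs 10 of 18 were positive and the median was 0.25, against -0.07 over all genes. With library totals in place of TMM these medians of all genes moved to 0.14 and 0.49, so that the fold changes of members are to be read relative to them. Leaving out irradiated 2 and irradiated 3 leaves 1 irradiated library and lets 28 members be tested. The members' median in irradiated constructs was then -0.09, against -0.44 over all genes. Without cocultured 2, where 21 members were tested, the cocultured median was -0.72, against -0.20 over all genes. The 18 are the members with enough counts to be tested, and their counts and medians describe them without testing them as a list.

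**Figure D1:**
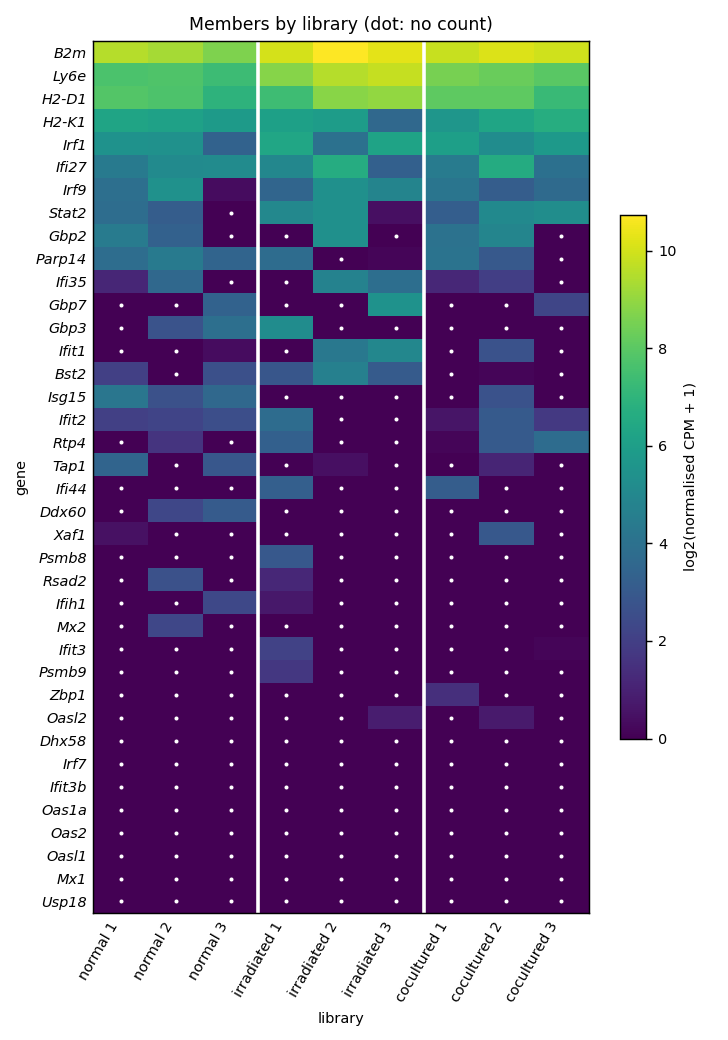
Level of each of the 38 members (rows, ordered by mean level) in each of the 9 libraries (columns), as log2 of normalised CPM plus 1, with a white dot where a library had no count. B2m, Ly6e, H2-D1 and H2-K1 are filled in every column, while 8 members at the bottom have a dot in every column.

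Counts were concentrated in few members. B2m, H2-D1, H2-K1 and Ly6e together took 85.0% to 92.9% of the members' counts in each library. These 4, Irf1, Irf9 and Ifi27 were counted in all 9 libraries, and Stat2, Ifit2 and Parp14 in 7 or 8. Another 7 members were counted in 4 to 6 libraries, 9 in 2 or 3 and 4 in a single library. No library held a count of Irf7, the factor that amplifies type I interferon production, of Oas1a, Oas2 or Oasl1, members of the Oas family, or of Mx1, a GTPase that blocks viruses. Usp18, which strips Isg15 from proteins and damps the receptor, Ifit3b and the RNA helicase Dhx58 had none either. A count of 0 allows up to 3 counts, which is 0.281 to 0.816 CPM by library, for counting error only. The whole-library background was uneven as well: 12 to 19 members and 44.6% to 76.0% of all genes with a count anywhere were detected per library.

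Class I genes were the most counted part of the response. B2m stood at 732, 620 and 397 CPM in normal 1 to 3, at 1050, 1700 and 1270 in irradiated 1 to 3 and at 901, 1160 and 1000 in cocultured 1 to 3. All irradiated and all cocultured libraries lay above all normal ones, and irradiated 1 lay within the cocultured range. The group means were 583 ± 171, 1340 ± 331 and 1020 ± 133 CPM (SD, n = 3 each). The log2 fold change was 1.20 ± 0.34 (SE, edgeR adjusted p = 0.291) in irradiated and 0.81 ± 0.34 (edgeR adjusted p = 1) in cocultured against normal constructs, and 0.39 ± 0.33 between irradiated and cocultured ones (edgeR adjusted p = 0.875). B2m passed with DESeq2 in irradiated constructs (adjusted p = 0.000549). Without normal 3 and irradiated 1, the libraries with the highest muscle marker sums, its irradiated value was 1.15, and without irradiated 2 and irradiated 3 it was 0.85. The share of counts from mitochondrial genes and Gm26917 moved with these groups, at 14.6% to 31.6% in normal, 8.62% to 16.8% in irradiated and 9.35% to 10.8% in cocultured libraries. With those genes left out before scaling, B2m was at 1.20 in irradiated and 0.81 in cocultured against normal constructs.

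H2-D1, a classical heavy chain, stood at 232, 210 and 123 CPM in normal 1 to 3. Irradiated 2 and irradiated 3 held 448 and 512 CPM, and irradiated 1 held 166, within the normal range. Cocultured 1 to 3 held 271, 271 and 153 CPM, so the cocultured and normal groups overlapped. The log2 fold change in irradiated against normal constructs was 0.996 ± 0.44 (edgeR adjusted p = 0.483), and -0.18 without irradiated 2 and irradiated 3.

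H2-K1, the other classical heavy chain, did not follow. It stood at 75.2, 69.1 and 56.6 CPM in normal 1 to 3, at 66.7, 59.8 and 11.2 in irradiated 1 to 3 and at 49.0, 78.8 and 103 in cocultured 1 to 3. Irradiated 3 lay below every other library, and the 3 groups overlapped. The log2 fold change was -0.55 ± 0.64 in irradiated and 0.20 ± 0.63 in cocultured against normal constructs (edgeR adjusted p = 1 for both). The first was -0.08 without irradiated 3 and the second -0.07 without cocultured 3. Class I genes resemble each other in sequence and differ between mouse strains, so reads may be shared between them or lost, which was not tested.

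**Figure D2:**
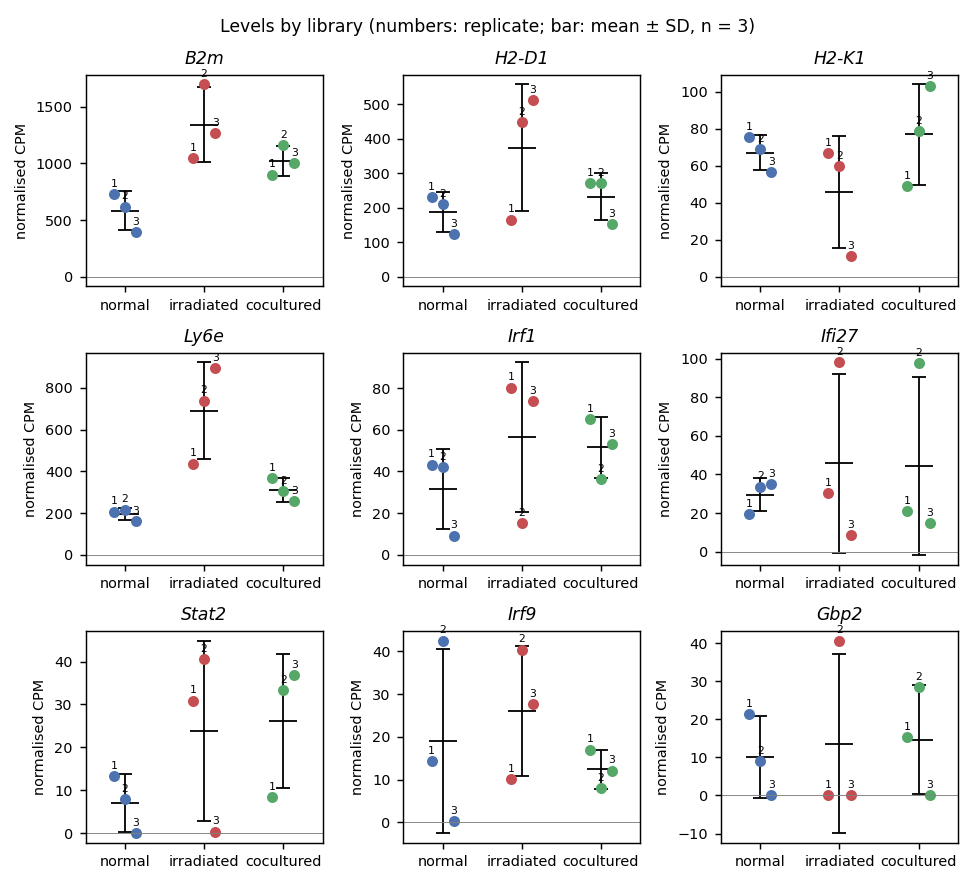
Normalised CPM (y axis, linear) of the 9 members with a mean of at least 10 CPM, by group (x axis), with 1 numbered point for each library and bars for mean ± SD (n = 3). B2m and Ly6e show irradiated and cocultured points above all normal ones. Irradiated 2 sets the irradiated means of Ifi27 and Gbp2, and cocultured 2 sets the cocultured mean of Ifi27. Stat2 spreads widely within each group.

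Heavy chains were also compared with B2m inside each library, where no scaling between libraries enters. Per 100 B2m counts, H2-K1 had 10.3, 11.2 and 14.3 counts in normal 1 to 3, 6.32, 3.51 and 0.882 in irradiated 1 to 3, and 5.44, 6.76 and 10.3 in cocultured 1 to 3. All irradiated libraries lay below all normal ones, and exact 95% binomial intervals for irradiated 1 (5.63 to 7.09) and normal 1 (9.20 to 11.4) did not meet, for counting error only. The means were 3.57 ± 2.72 and 11.9 ± 2.1 (SD, n = 3 each), a log2 difference of -2.13. A two-sided exact permutation test gave p = 0.1, the smallest that 3 against 3 allows, and 0.3 adjusted over the 6 ratio comparisons. H2-D1 had 31.7, 33.8 and 31.1 counts per 100 B2m in normal 1 to 3, and 15.8, 26.3 and 40.3 in irradiated 1 to 3, on both sides of the normal values. In cocultured 1 to 3 it had 30.1, 23.3 and 15.3, all below the normal libraries (22.9 ± 7.39 against 32.2 ± 1.45, SD, n = 3 each, log2 difference -0.55, exact permutation p = 0.1, adjusted 0.3). The intervals of cocultured 1 (28.8 to 31.4) and normal 3 (27.9 to 34.5) overlapped. For H2-K1 the cocultured and normal libraries met at 10.3 (exact permutation p = 0.2, adjusted 0.3). These ratios move with B2m as well as with the heavy chain. In CPM, H2-K1 in irradiated and H2-D1 in cocultured libraries overlapped with normal, while B2m lay above normal in irradiated and cocultured libraries.

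**Figure D3:**
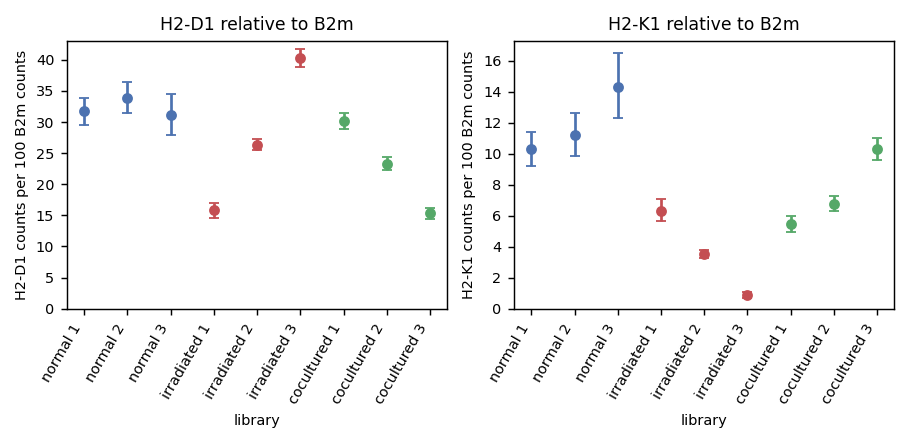
H2-D1 (left) and H2-K1 (right) counts per 100 B2m counts (y axes, linear from 0) in each of the 9 libraries (x axes), with exact 95% binomial intervals that cover counting error only. H2-K1 lies at 0.882 to 6.32 in the irradiated and at 10.3 to 14.3 in the normal libraries, while H2-D1 spreads from 15.8 to 40.3 in the irradiated ones.

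Counts of the peptide supply were uneven, with Psmb8, Psmb9 and Tap1 near absent. Psmb8 and Psmb9, subunits of the immunoproteasome, had 32 and 11 counts in irradiated 1 and 0 in the other libraries. Their constitutive counterparts Psmb5 and Psmb6 averaged 21.0 and 123 CPM in normal, 15.8 and 97.2 in irradiated and 12.5 and 117 in cocultured constructs. Tap1, a subunit of the peptide transporter, had 49, 0 and 24 counts in normal 1 to 3, 4 counts in the irradiated group, all in irradiated 2, and 11 in the cocultured group, all in cocultured 2. Its partner Tap2 stood at 0.544 to 21.7 CPM in normal, 1.69 to 59.2 in irradiated and 8.12 to 17.0 in cocultured libraries. Tapbp, the tapasin that bridges the transporter and class I molecules, had 153, 125 and 104 CPM in normal 1 to 3, 299, 236 and 271 in irradiated 1 to 3 and 124, 131 and 86.9 in cocultured 1 to 3. Its irradiated libraries lay above all others, without passing (log2 1.08, edgeR adjusted p = 0.377 against normal, and log2 1.24, edgeR adjusted p = 0.362 against cocultured constructs). Of all tested genes 3.94% had irradiated above all normal libraries and 3.9% above all cocultured ones. Psmb10, the remaining immunoproteasome subunit, ranged from 0 to 30.4 CPM and overlapped between all groups. Psme1 and Psme2, the proteasome activator subunits, were counted in all 9 libraries, at 18.2 to 72.4 and 12.5 to 61.8 CPM, without a call. For Psme1 all irradiated libraries (18.2 to 29.6 CPM) lay below all cocultured ones (53.4 to 72.4), as in 10.6% of all tested genes. Nlrc5, the coactivator of class I genes, had 40 counts in cocultured 2 and 0 elsewhere.

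Among antiviral effectors Ly6e was the member nearest to the threshold. Ly6e encodes a surface protein with a lipid anchor that interferon can induce. It stood at 207, 217 and 163 CPM in normal 1 to 3, at 437, 739 and 893 in irradiated 1 to 3 and at 368, 307 and 256 in cocultured 1 to 3, and no 2 of the 3 groups overlapped. The means were 196 ± 28.6, 690 ± 232 and 310 ± 56.1 CPM (SD, n = 3 each). The log2 fold change of irradiated against normal constructs was 1.82 ± 0.34 (edgeR adjusted p = 0.0932), between 1.59 and 2.06 as each library was left out and 1.16 without irradiated 2 and irradiated 3, and it passed without irradiated 1 (edgeR adjusted p = 0.0136), where 1.11% of all genes did. DESeq2 called it (adjusted p = 2.73e-06), limma voom did not (adjusted p = 0.0508), and edgeR called it when all genes with any count were tested (adjusted p = 0.00201), where 0.698% of them passed. Against cocultured constructs the difference was 1.15 ± 0.34 (edgeR adjusted p = 0.428, limma voom adjusted p = 0.0364, DESeq2 adjusted p = 0.00555). Cocultured and normal constructs differed by 0.66 ± 0.33 (edgeR adjusted p = 1).

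Ifi27, a small interferon-inducible membrane protein, stood at 19.6, 33.7 and 35.1 CPM in normal 1 to 3, at 30.3, 98.1 and 8.75 in irradiated 1 to 3 and at 20.9, 97.6 and 14.8 in cocultured 1 to 3. Irradiated 2 and cocultured 2 were high and the groups overlapped. Its log2 fold change in irradiated against normal constructs was 0.63 ± 0.97 (edgeR adjusted p = 1), and -0.60 without irradiated 2. In cocultured constructs it was 0.59 ± 0.97, and -0.72 without cocultured 2.

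The other effectors had few counts in scattered libraries, and those given one by one, like Isg15, Parp14, Gbp3, Gbp7, the sensors and Psmb6, were singled out after their values were seen. Ifit1, which binds viral RNA that lacks a host cap, had 200 and 263 counts in irradiated 2 and irradiated 3, 53 in cocultured 2, 1 in normal 3 and 0 in the other 5 libraries. The ratio of irradiated to normal constructs, from counts pooled over each group, was 251. Its interval of 44.8 to 9930 covers counting error only and not the spread between libraries. Irradiated 1 had no count, and the fitted log2 fold change was 7.32 ± 3.78 (SE, edgeR adjusted p = 0.534). Bst2, the tetherin that holds budding virus at the membrane, had 15, 0 and 19 counts in normal 1 to 3, 30, 263 and 63 in irradiated 1 to 3 and 0, 1 and 0 in cocultured 1 to 3. All irradiated libraries lay above the others after scaling, at 6.35 to 24.6 CPM against at most 5.17 (edgeR adjusted p = 1 against normal and 0.493 against cocultured constructs, the latter 0.0147 with DESeq2). Ifi35 had 6, 50 and 0 counts in normal 1 to 3, 0, 282 and 118 in irradiated 1 to 3 and 12, 29 and 0 in cocultured 1 to 3. Its groups overlapped after scaling (log2 1.68 ± 2.80 in irradiated against normal constructs), without a call. Ifit2 was counted in every normal and cocultured library, at 0.533 to 7.20 CPM, and among irradiated ones in irradiated 1 alone, at 12.9 CPM. Rtp4, a chaperone of G protein-coupled receptors, Xaf1, a partner of an apoptosis inhibitor, Ifi44, Ifit3, Oasl2, Mx2 and Rsad2, the viperin that makes an antiviral nucleotide, reached at most 12.7 CPM in any library.

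Isg15, the ubiquitin-like protein that is attached to other proteins in the interferon response, went the other way. It had 86, 24 and 42 counts in normal 1 to 3, 0 in all irradiated libraries, and 0, 54 and 0 in cocultured 1 to 3. Taking the 3 counts that a count of 0 allows for the whole group, it was at least 93.5-fold lower in irradiated than in normal constructs, for counting error only, and it did not pass (edgeR adjusted p = 0.483). Its normal level was 5.42 to 17.6 CPM, and irradiated 2 and irradiated 3 were the libraries with the fewest genes detected. Parp14, an ADP-ribosyltransferase of the same response, had 64, 91 and 37 counts in normal 1 to 3, 60, 0 and 1 in irradiated 1 to 3 and 152, 68 and 0 in cocultured 1 to 3 (log2 -1.77 ± 2.58 in irradiated against normal constructs, edgeR adjusted p = 1).

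**Figure D4:**
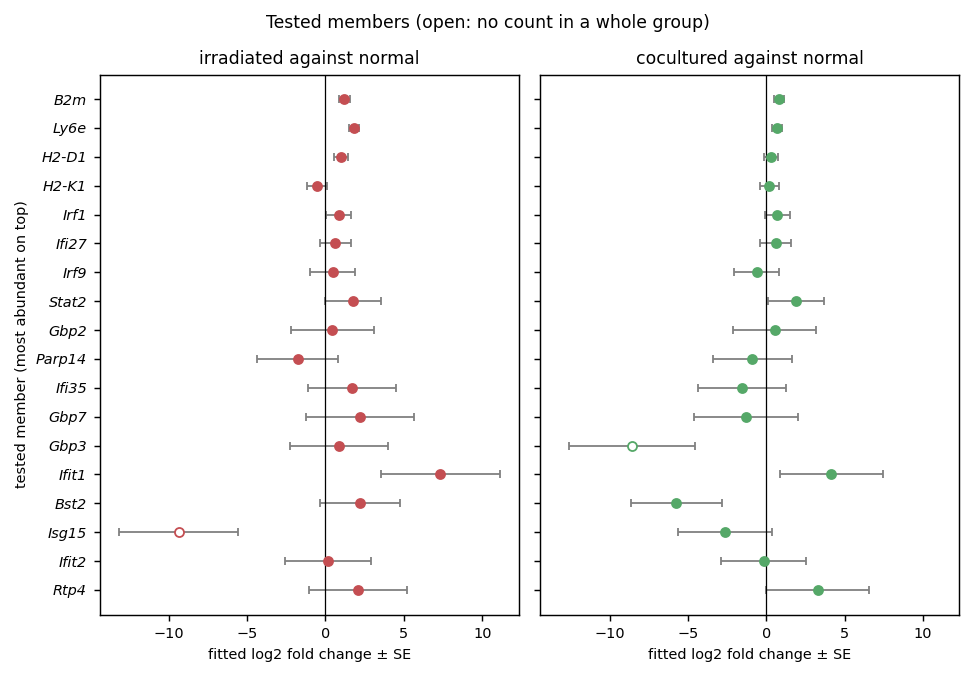
Fitted log2 fold change ± SE (x axes) of the 18 tested members (y axis, most abundant on top) in irradiated (left) and cocultured (right) against normal constructs, which share the normal libraries. Open points mark genes without a count in a whole group, whose fitted values are no bounds. B2m and Ly6e lie at 1.20 and 1.82 on the left with short bars, and the bars lengthen toward the less abundant members below.

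Transcription factors of the pathway were counted at low levels. Irf1, which interferon gamma and inflammatory signals induce and which drives class I genes, stood at 43.3, 42.0 and 9.25 CPM in normal 1 to 3, at 80.2, 15.1 and 73.7 in irradiated 1 to 3 and at 65.1, 36.3 and 53.2 in cocultured 1 to 3. The groups overlapped, with normal 3 and irradiated 2 lowest (log2 0.84 ± 0.79 in irradiated and 0.71 ± 0.79 in cocultured against normal constructs, edgeR adjusted p = 1 for both). Stat2 stood at 13.3, 7.91 and 0 CPM in normal 1 to 3, at 30.9, 40.6 and 0.350 in irradiated 1 to 3 and at 8.31, 33.3 and 36.9 in cocultured 1 to 3. The groups overlapped, and its log2 fold changes were 1.76 ± 1.77 and 1.88 ± 1.78 in irradiated and cocultured against normal constructs (edgeR adjusted p = 1 for both). Irf9, the DNA-binding partner of Stat2, stood at 14.3, 42.5 and 0.272 CPM in normal 1 to 3, at 10.2, 40.4 and 27.7 in irradiated 1 to 3 and at 17.0, 8.02 and 12.1 in cocultured 1 to 3 (log2 0.45 ± 1.45 in irradiated against normal constructs, -0.11 without normal 3 and -0.01 without irradiated 2). Normal 3 held the lowest value of all 3 factors.

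Guanylate-binding proteins, GTPases that attack the vacuoles of intracellular pathogens, appeared library by library. Gbp2 stood at 21.4, 9.04 and 0 CPM in normal 1 to 3, at 0, 40.7 and 0 in irradiated 1 to 3 and at 15.4, 28.5 and 0 in cocultured 1 to 3. Its irradiated level rested on irradiated 2, without which the fitted log2 fold change turned from 0.42 to -9.11, a value for a group without counts (-0.15 without normal 3). Gbp3 had 25 and 52 counts in normal 2 and normal 3 and 170 in irradiated 1, and none in the other 6 libraries. Gbp7 had 368 counts in irradiated 3, 34 in normal 3 and 33 in cocultured 3. These 3, Ifit1, Ifi35 and Parp14 each had 0 counts in one library and at least 100 in another of the same group, a pattern found in 34.5% of all tested genes.

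Nucleic acid sensors among the members were close to absent from the counts. Dhx58 had no count, Ifih1 had 15 in normal 3 and 3 in irradiated 1, the helicase Ddx60 had 17 and 27 in normal 2 and normal 3, and Zbp1, a sensor of Z-form nucleic acid, had 16 in cocultured 1. None was tested. Cgas, the DNA sensor outside the member list, stood at 20.2, 12.7 and 18.0 CPM in normal 1 to 3, at 2.33, 0 and 3.97 in irradiated 1 to 3 and at 18.1, 7.61 and 0 in cocultured 1 to 3. The irradiated libraries lay below the normal ones, as in 11.8% of all tested genes, without passing (log2 -3.01, edgeR adjusted p = 0.973). Rigi, an RNA helicase that signals through Mavs and was added after its values were seen, stood at 5.31, 12.4 and 22 CPM in normal 1 to 3, at 27.7, 40.1 and 65.3 in irradiated 1 to 3 and at 21.6, 17.6 and 0 in cocultured 1 to 3. Its irradiated libraries lay above all others, without passing (log2 1.74, edgeR adjusted p = 1 against normal, and log2 1.76, edgeR adjusted p = 0.882 against cocultured constructs). Such a separation was found in 3.94% of all tested genes against normal and in 3.9% against cocultured constructs. Sting1, the adaptor of Cgas, averaged 11.6, 14.9 and 28.3 CPM in normal, irradiated and cocultured constructs, and Mavs, the adaptor of the RNA helicases, 6.66, 16.5 and 25.9 CPM, neither passing. Sting1 was highest in irradiated 3 (39.4 CPM) and cocultured 3 (59.6 CPM), with no count in normal 3 and irradiated 2. All cocultured libraries of Mavs lay above all normal ones, as in 5.66% of all tested genes. Irf3, the factor downstream of both adaptors, stood at 9.80 to 17.8 CPM in normal, 0 to 33.6 in irradiated and 2.26 to 31.4 in cocultured libraries.

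Of the 11 receptor and kinase genes on the list 10 had counts, Ifnlr1, the interferon lambda receptor, being the exception. Of 13 interferon genes on the list 12, including Ifnb1 and Ifng, had no count in any library, and Ifnk had some, with 60 and 9 counts in normal 1 and normal 2 and 125 in cocultured 3. Ifnar1 ranged from 0.450 to 79.6 CPM over the 9 libraries. Ifnar2 averaged 174, 121 and 178 CPM and Jak1 230, 228 and 309 CPM in normal, irradiated and cocultured constructs, and Ifngr1, a chain of the interferon gamma receptor, 34.1, 62.7 and 49.7 CPM. Irradiated libraries lay below all normal ones for Ifnar2, as in 11.8% of all tested genes, and above them for Ifngr1, as in 3.94%. Neither passed (edgeR adjusted p = 0.836 and 0.858). Ifngr2, the other chain of the interferon gamma receptor, was not among the genes fixed for naming and averaged 6.55, 39.0 and 39.6 CPM. All its cocultured libraries lay above all normal ones, as in 5.66% of all tested genes, with no call (log2 2.59, edgeR adjusted p = 1). The chemokine Cxcl10 had 16 counts in normal 2 and 0 elsewhere. Ifitm3, an endosomal restriction factor, averaged 989, 979 and 1140 CPM, with a log2 fold change of -0.01 in irradiated and 0.21 in cocultured against normal constructs.

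Over all 6 lists of further pathway genes, 135 of 136 symbols were in the tables, 102 had counts and 76 were tested. In each of the 3 comparisons 0 of these 76 passed in either direction. In irradiated against normal constructs 43 of 76 were positive with a median log2 fold change of 0.27, and 2 higher and 3 lower were at an unadjusted p under 0.05, beside 190 higher and 1042 lower of all genes. In cocultured against normal constructs 42 of 76 were positive with a median of 0.06, and 1 was at an unadjusted p under 0.05, lower, beside 102 higher and 390 lower of all genes. In irradiated against cocultured constructs 36 of 76 were positive with a median of -0.07, and 4 higher and 5 lower were at an unadjusted p under 0.05, beside 270 higher and 878 lower of all genes.

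Groups of 3 libraries did not overlap in some members. Irradiated lay above normal libraries in 3 of 18 tested members (B2m, Ly6e and Bst2, 16.7%), as in 3.94% of all tested genes, and below them in 1 (Isg15, 5.56%), as in 11.8% of all. Cocultured lay above normal libraries in 2 (B2m and Ly6e, 11.1%), as in 5.66% of all, and below them in 0, against 7.51%. Irradiated lay above cocultured libraries in 2 (Ly6e and Bst2, 11.1%), as in 3.9% of all, and below them in 0, against 10.6%. With 18 members these shares rest on 1 to 3 genes.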

How the data were processed

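RNA of 9 constructs was read by 3′ end sequencing (QuantSeq FWD, oligo-dT priming, 100 ng of RNA, single 75 bp reads), per the labels' protocols. The deposited files hold raw counts per gene symbol, 1 library a file, from STAR and HTSeq with GRCm39, per the submitters' processing notes, which give no versions. The annotation, strand setting and handling of duplicate reads are not stated in any source used. Reads of near-identical genes (Ifit3 and Ifit3b, class I genes) may be shared. In 3′ end counts a level is not divided by transcript length. The number in each file's column name is 1 above that of its label, and samples follow the series' own record.

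Counts were filtered with filterByExpr, scaled with TMM and tested with edgeR 4.0.16 in 1 quasi-likelihood model with group as its term over all 9 libraries, and p-values were adjusted after Benjamini and Hochberg over 11980 genes, with calls under 0.05. Standard errors are approximate. limma 3.58.1, DESeq2 1.42.0, other scalings and filters, a replicate block and left-out libraries were alternatives. Floors are 3 counts, over a library or a group. Per-library values are given for members with a mean of at least 10 CPM. The members and lists were chosen with earlier results of these data known. Between libraries of a group chi-square values per gene of 35.4 to 297 showed differences beyond sampling, so none was treated as a duplicate. One gene of the pathway panel is not reported here.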

Additional observations from a re-analysis of the deposited data

How the results depend on the processing

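Direction was kept by Ly6e and B2m under every alternative run in the 3 comparisons. Of 567 values of single named members under alternatives 44 changed direction, 6 became significant and 517 did neither. Genes called between irradiated and normal constructs numbered 7, but 455 with DESeq2, 25 with limma voom, 130 with all genes that had any count, 0 with only the 6 libraries compared, 20 without normal 3 and irradiated 1, 190 without irradiated 2 and irradiated 3 (chosen after seeing the data, with 1 irradiated library left that is assumed to vary like the other groups) and 6 to 147 when each library was left out. Between cocultured and normal constructs 0 became 124, 52 with any count, 1 and 96 under the same settings, and 0 to 0 on leaving out libraries. Between irradiated and cocultured constructs 4 became 529, 105, 153, 0, 21 and 449 in the order given first, 9 with library totals and 1 to 97 on leaving out libraries. Members called became 2, 1 and 3 with DESeq2, 1 with any count (irradiated against normal), and 1 with limma voom and 1 without irradiated 2 and irradiated 3 (irradiated against cocultured), with 0 to 1 on leaving out libraries. The members' median in irradiated against normal constructs was 0.33 with limma voom, against -0.958 over all genes. Without irradiated 2 and irradiated 3 it was -0.094, against -0.438 over all genes. In cocultured against normal constructs the members' median was 0.75 with library totals, against 0.489 over all genes. It ran from -0.72 to 0.58 on leaving out libraries, the lowest without cocultured 2, where the median of all genes was -0.203.

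Deviations from group means of same-numbered libraries had correlations of -0.071 to 0.054, and those of differently numbered ones -0.081 to 0.094. No pairing by number was seen, and the main model used none. A shared dish or batch was not tested. With the replicate block 23 and 12 genes were called in irradiated against normal and against cocultured constructs, Ifi27 was -0.029 and Gbp2 -0.661 in irradiated and Irf9 0.045 and Ifi27 -0.072 in cocultured against normal constructs.

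Other reversals in irradiated against normal constructs were Gbp2 at -2.31 with limma voom, and Irf9 at -0.91, Gbp2 at -9.05 and H2-D1 at -0.18 without irradiated 2 and irradiated 3. In cocultured against normal constructs Irf9 was 0.83 and Gbp2 -0.026 with limma voom, and Gbp2 -0.061 without normal 3 and irradiated 1. In irradiated against cocultured constructs Gbp2 was 0.046 with DESeq2 and with its size factors, Irf1 -0.47 with limma voom, Irf1 -0.12 and Ifi27 -0.012 with library totals, Irf1 -0.20 and Gbp2 0.49 without normal 3 and irradiated 1, and Irf9 -0.29, Stat2 0.23, Ifi27 -0.56 and H2-D1 -0.49 without irradiated 2 and irradiated 3. On leaving out each library, values in irradiated against normal constructs ran from -0.11 to 1.83 for Irf9, -0.60 to 1.13 for Ifi27 and -9.11 to 1.60 for Gbp2. In cocultured against normal constructs they ran from -1.19 to 0.77 for Irf9, -0.72 to 1.01 for Ifi27, -0.39 to 1.69 for Gbp2 and -0.066 to 0.442 for H2-K1. In irradiated against cocultured constructs they ran from -0.21 to 0.57 for Irf1, -0.75 to 0.45 for Stat2, -1.19 to 1.35 for Ifi27 and -9.64 to 0.81 for Gbp2. The causes were not tested. Members under 10 CPM rest on scattered counts, and their absence from a library is limited by a depth of 3 counts.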
